A study of Mus musculus with 6 samples.

Results

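The replication-dependent histone genes are the protein-coding genes whose symbol begins with Hist1h, Hist2h, Hist3h or Hist4h. By this rule, 66 of the 21255 protein-coding genes in the deposited table were members: 6 H1, 19 H2A, 17 H2B, 11 H3 and 13 H4 genes. Of these, 55 belong to the Hist1, 8 to the Hist2, 2 to the Hist3 and 1 to the Hist4 cluster. They are described here in livers of wt C57BL/6 mice aged 10 weeks on NCD, 3 infected with Ad-MAFG, an adenovirus carrying Mafg cDNA under the CMV promoter, and 3 with the empty virus Ad-CMV. All 6 mice thus carried an adenovirus, and whole livers hold other cells beside hepatocytes. The comparison asks how added MAFG, a small MAF transcription factor, changes liver transcripts. The group labels could not be checked against Mafg, which was not analysed here.

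H2A, H2B, H3 and H4 form the protein core around which DNA is wound in the nucleosome, and H1 binds the linker DNA between nucleosomes. The genes of this class are transcribed mainly in S phase, when new chromatin needs new histones. Their mRNAs typically lack introns and a poly(A) tail and end in a short stem-loop that the stem-loop binding protein SLBP holds. Not every member is listed in this form, as Hist1h2bc has a transcript of 736 bases over 23684199 to 23692488 on chromosome 13. Most hepatocytes of the adult liver do not divide. Libraries that select poly(A) RNA largely miss these mRNAs, while the libraries used here were depleted of ribosomal RNA and can hold them.

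The stem-loop was searched in the GENCODE M21 transcript to which each member's row refers, on the transcript's own strand, as a stem of 6 bases that begins with GG and ends with T, a loop of 4 bases that begins with TTT, and the reverse complement of the stem. It was present in 40 of 64 members with a transcript there, and in 4 of 6 H1, 11 of 19 H2A, 7 of 15 H2B, 7 of 11 H3 and 11 of 13 H4 genes. Counted over any protein-coding transcript of a gene, 41 of 63 members (65.1%) and 14 of 21838 other genes (0.0641%) held it. The form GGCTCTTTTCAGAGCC was the most common, in 22 members, and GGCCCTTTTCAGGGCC came next, in 7. The stem-loops below belong to the gene of highest level of each histone type and to Hist1h1e, which had the lowest ratio between the groups among members of at least 1 FPKM, with the stem-loop in capitals and DNA letters throughout.
Hist1h1c: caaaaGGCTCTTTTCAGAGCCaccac
Hist1h1e: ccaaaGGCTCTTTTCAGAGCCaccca
Hist1h2ae: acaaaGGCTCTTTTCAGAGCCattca
Hist1h2bb: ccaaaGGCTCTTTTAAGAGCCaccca
Hist1h3e: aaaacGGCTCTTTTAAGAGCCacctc
Hist1h4d: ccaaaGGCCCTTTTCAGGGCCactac
The H4 form differed from the H1, H2A, H2B and H3 forms within the stem, and all shared the run of T, which the search required. In this annotation 44 of the 66 members had the start and end given in the deposited table, and others were longer. A stem-loop found in it thus need not lie within the gene as the table has it. The printed stem-loops did not all lie at the end of the annotated transcript. From 23 bases (Hist1h2bb) to 1153 bases (Hist1h1e) followed them, with 840 in Hist1h1c.

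Upstream sequence was matched, through older symbols, for 60 of the 66 members in RefSeq promoters (GRCm38.p6), and the 250 bases before each start were searched on both strands. The TATA box letters TATAAA were found in 29 members (48.3%), against 12.4% of all 32851 promoters. CCAAT was found in 50 members (83.3%) against 33.8%, and in all 6 H1, 18 H2A and 15 H2B promoters, while only 3 of 12 H4 promoters held it. The octamer letters ATTTGCAT were found in 7 of 18 H2A and 5 of 15 H2B promoters and in none of the H1, H3 and H4 promoters, against 1.60% of all promoters. Some H2A and H2B genes lie head to head, such as Hist1h2ae and Hist1h2bg, and their searched sequences overlap. A site in the overlap counts for both genes, so these promoters are not all separate stretches of DNA. The antioxidant response element core TGACNNNGC, to which NRF2 with small MAF proteins can bind, was found in 1 of the 60, the H2A gene Hist1h2aa, against 10.2% of all promoters. None of these motifs contains another, although matches can share bases, and a match or its absence says nothing of binding. The 120 bases before the start are shown for 1 H1, 1 H2B and 1 H4 gene that moved together, with these motifs in capitals, on the strand of the gene: Hist1h1e at chr13:23622559-23622678 (minus strand), Hist1h2bb at chr13:23746614-23746733 (plus strand) and Hist1h4d at chr13:23581448-23581567 (plus strand).
Hist1h1e: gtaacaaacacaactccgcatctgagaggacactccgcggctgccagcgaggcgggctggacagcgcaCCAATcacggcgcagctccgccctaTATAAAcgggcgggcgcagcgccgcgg
Hist1h2bb: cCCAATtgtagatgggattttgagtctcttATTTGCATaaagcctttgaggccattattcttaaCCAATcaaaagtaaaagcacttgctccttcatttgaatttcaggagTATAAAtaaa
Hist1h4d: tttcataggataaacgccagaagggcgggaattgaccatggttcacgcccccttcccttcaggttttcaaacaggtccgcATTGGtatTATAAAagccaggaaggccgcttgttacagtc

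The values that follow are FPKM, read fragments scaled to the length of the transcript and to the number of fragments in the library, of which the authors deposited 1 pooled value per group. There are no values per mouse, so no SD, n or test can be given, depth per library is unknown, and no difference below is shown to exceed the spread between mice. Differences are given as log2((Ad-MAFG + 0.1)/(Ad-CMV + 0.1)), called the log2 ratio, which understates the change of low genes. Where a gene had several rows, its row of highest mean FPKM stood for it. Histone genes with at least 1 FPKM in the higher group were counted as measured, and they were 27 of the 66: 5 H1, 0 H2A, 9 H2B, 3 H3 and 10 H4 genes. The other 39 had at most 0.278 FPKM in either group, and 22 of them were listed at 0 in both.

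Most of the 27 measured histone genes were slightly lower in Ad-MAFG livers, and none changed by 1.5-fold. In Ad-MAFG, 23 of the 27 were lower (85.2%) and 4 were higher, while 55.3% of all 7555 protein-coding genes of at least 1 FPKM were lower. None of the 27 was 1.5-fold higher and none 1.5-fold lower, against 10.2% and 10.9% of protein-coding genes. At a lower limit of 0.32 on the log2 scale, 1 was higher and 10 were lower, where 19.3% of protein-coding genes were higher and 22.6% lower. The median log2 ratio was -0.29 and ranged from -0.56 to 0.36, against a median of -0.046 over all protein-coding genes. Summed over all 66 members, FPKM was 581 in Ad-CMV and 472 in Ad-MAFG, or 81.2% of it, and the sum over all protein-coding genes was 78.0%.

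**Figure D1:**
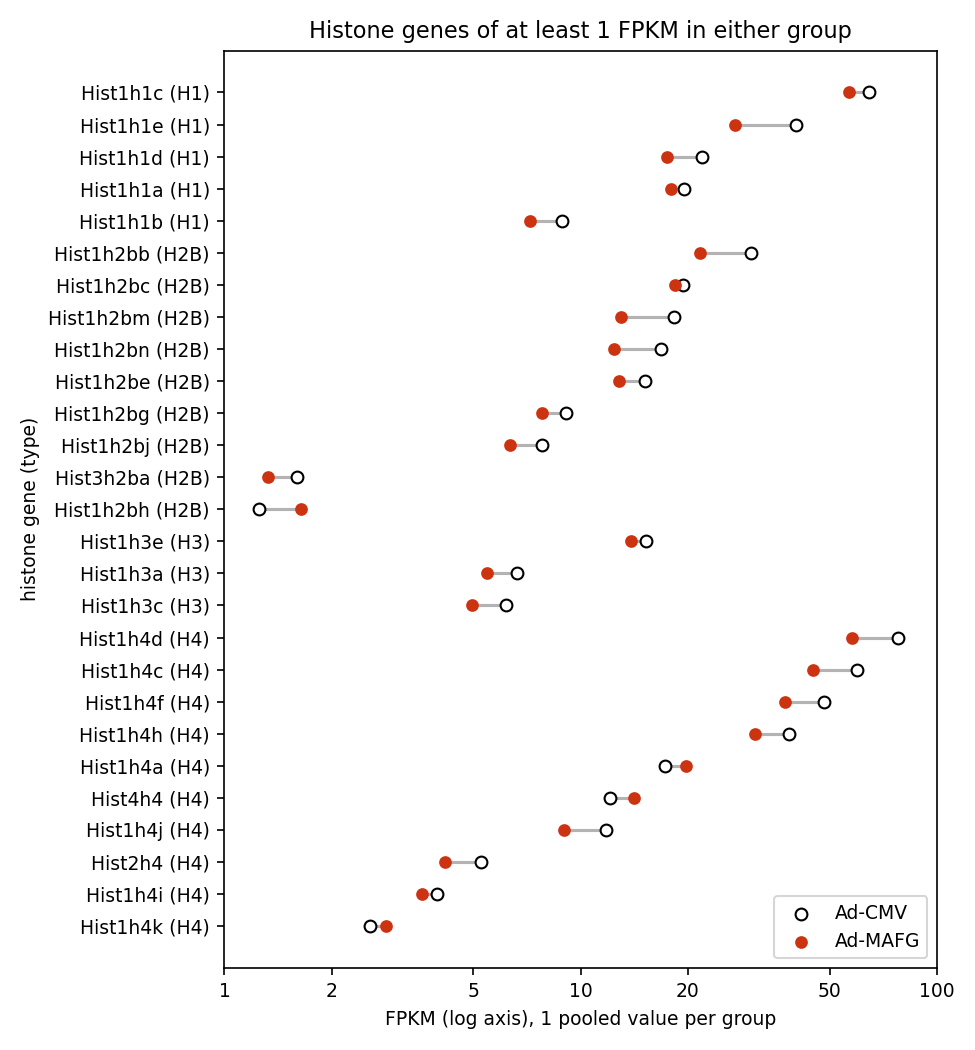
FPKM (log axis) in Ad-CMV (open) and Ad-MAFG (filled) of the 27 histone genes with at least 1 FPKM in either group, 1 pooled value per group, so no error bars. The filled point lies to the left of the open one in 23 genes and to the right in Hist1h2bh, Hist1h4a, Hist4h4 and Hist1h4k.

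All 5 measured H1 genes, which encode linker histones of somatic cells, were lower in Ad-MAFG. Hist1h1c (chromosome 13, 23738808 to 23740367, GRCm38), encoding H1.2, had the highest H1 level and went from 64.5 FPKM in Ad-CMV to 56.6 FPKM in Ad-MAFG (log2 ratio -0.19). Hist1h1e (chromosome 13, 23621755 to 23622502), encoding H1.4, had 40.2 FPKM in Ad-CMV and 27.2 FPKM in Ad-MAFG. Its log2 ratio of -0.56 was the lowest among the measured histone genes and lay just short of 1.5-fold. Hist1h1d, encoding H1.3, had 21.99 and 17.5 FPKM in Ad-CMV and Ad-MAFG, a log2 ratio of -0.33. Hist1h1a, encoding H1.1, was nearly level between the groups, with 19.5 FPKM in Ad-CMV and 18.0 FPKM in Ad-MAFG. Hist1h1b, encoding H1.5, had 8.89 and 7.22 FPKM. The sixth gene, Hist1h1t, which encodes the H1 of developing sperm cells, was listed at 0 in Ad-CMV and at 0.0279 FPKM in Ad-MAFG. Over the H1 genes, summed FPKM was 155 in Ad-CMV and 127 in Ad-MAFG.

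Among H2B genes, 8 of 9 measured ones were lower and the H2B gene of lowest mean level was higher. Hist1h2bb (chromosome 13, 23746790 to 23747241) had the highest H2B level, 30.1 FPKM in Ad-CMV and 21.6 FPKM in Ad-MAFG (log2 ratio -0.47). Hist1h2bm had 18.3 FPKM in Ad-CMV and 12.97 FPKM in Ad-MAFG, at -0.50 the lowest log2 ratio of the type. Hist1h2bn went from 16.8 to 12.4 FPKM (log2 ratio -0.43). These 3 were the H2B genes lower by more than 0.32 on the log2 scale. Hist1h2bc, at 19.3 FPKM in Ad-CMV and 18.4 FPKM in Ad-MAFG, was close to level (log2 ratio -0.075). Hist1h2be had 15.1 and 12.8 FPKM, and Hist1h2bg 9.09 and 7.79 FPKM. Between them and the low genes came Hist1h2bj, with 7.80 FPKM in Ad-CMV and 6.34 FPKM in Ad-MAFG. Hist3h2ba on chromosome 11 was the lowest H2B gene that was not higher in Ad-MAFG, with 1.60 and 1.33 FPKM. Hist1h2bh had 1.253 FPKM in Ad-CMV and 1.64 FPKM in Ad-MAFG, and its log2 ratio of 0.36 was the highest among the measured histone genes. At so low a level the pseudocount and the number of fragments weigh most. The other 8 H2B genes had at most 0.0453 FPKM, and 4 of them were listed at 0 in both groups. Among these was Hist1h2ba, the H2B of the testis.

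All 3 measured H3 genes were lower, each by less than 0.32 on the log2 scale. Hist1h3e went from 15.3 FPKM in Ad-CMV to 13.8 FPKM in Ad-MAFG, Hist1h3a from 6.64 to 5.46 FPKM and Hist1h3c from 6.17 to 4.95 FPKM, with log2 ratios of -0.14, -0.28 and -0.31. The remaining 8 H3 genes had at most 0.278 FPKM, that of Hist2h3b in Ad-CMV.

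H4 genes held the largest part of the summed FPKM, 277 in Ad-CMV and 225 in Ad-MAFG, and the highest level of any member. Hist1h4d (chromosome 13, 23581598 to 23581990) had 77.7 FPKM in Ad-CMV and 57.9 FPKM in Ad-MAFG (log2 ratio -0.42). Hist1h4c (chromosome 13, 23698060 to 23698454) had 59.8 and 44.9 FPKM (log2 ratio -0.41). Hist1h4f went from 48.1 to 37.4 FPKM and Hist1h4h from 38.5 to 30.9 FPKM. These 4 genes of highest level were all lower by close to the same factor, with log2 ratios between -0.42 and -0.32. Hist1h4j, with 11.8 FPKM in Ad-CMV and 8.99 FPKM in Ad-MAFG, and Hist2h4 on chromosome 3, with 5.24 and 4.17 FPKM, had log2 ratios of -0.39 and -0.32. Hist1h4i was lower by less, with 3.95 and 3.58 FPKM. In contrast, 3 H4 genes were higher in Ad-MAFG. Hist1h4a had 17.3 FPKM in Ad-CMV and 19.7 FPKM in Ad-MAFG (log2 ratio 0.19). Hist4h4 (chromosome 6, 136801553 to 136804415), the sole member outside the Hist1, Hist2 and Hist3 clusters, had 12.1 and 14.1 FPKM (log2 ratio 0.22). Hist1h4k had 2.56 and 2.85 FPKM (log2 ratio 0.15). The H4 genes encode the same protein, and the values under their names went in either direction. All 10 measured values came from rows on the strand opposite to the gene, taken up below.

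By histone type, the median log2 ratio of measured genes was -0.30 for H1, -0.25 for H2B, -0.28 for H3 and -0.32 for H4. These medians differed by less than the genes within H2B or within H4. By cluster, 21 of 24 measured Hist1 genes were lower, with a median of -0.29, and the Hist2, Hist3 and Hist4 clusters had 1 measured gene each.

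The difference between groups moved with level between 1 and 100 FPKM, so the histone genes were also set beside other protein-coding genes of like level. Among other protein-coding genes the median log2 ratio was -0.016 at a mean of 1 to 5 FPKM, -0.12 at 5 to 20 FPKM and -0.22 at 20 to 100 FPKM. The histone genes had medians of -0.14 (5 genes), -0.28 (15 genes) and -0.41 (7 genes) in the same ranges. Lower in Ad-MAFG were 3 of 5, 13 of 15 and 7 of 7 histone genes, against 51.9%, 64.1% and 71.9% of other protein-coding genes. With each range's median taken off, a step added after the data were seen, the median log2 ratio of the histone genes was -0.16. In each range the median of the histone genes lay below that of the others, and 18 of the 27 histone genes lay between the quartiles of the others.

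**Figure D2:**
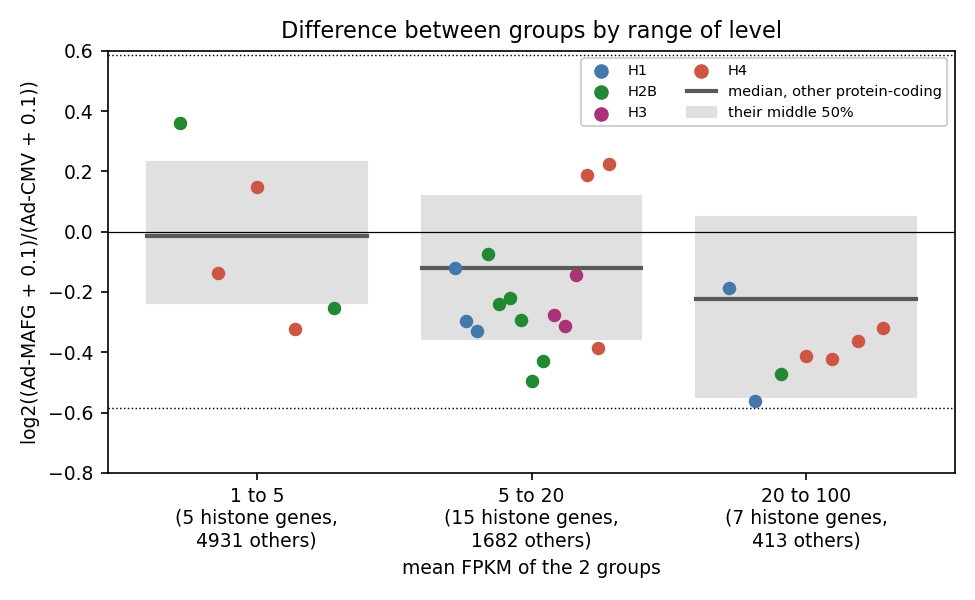
Log2 ratio of Ad-MAFG to Ad-CMV of the 27 measured histone genes (points, by type) in 3 ranges of mean FPKM, beside the median (line) and the quartiles (grey box) of other protein-coding genes; dotted lines mark 1.5-fold. No histone gene reaches a dotted line, and the line of the others falls from -0.016 to -0.22 with level.

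The level of nearly all measured histone genes came from a row assembled on the strand opposite to the gene. The strand of each row was inferred from the order of the loci. This order was taken to run along the plus strand and then the minus strand of a chromosome. Of the 27, 25 were opposite-strand rows, and Hist1h2bc and Hist1h2bh were own-strand rows. Opposite-strand rows held 95.2% of the members' summed FPKM in Ad-CMV and 94.5% in Ad-MAFG, against 36.8% and 40.0% for protein-coding rows in all. By gene, most other protein-coding genes of at least 1 FPKM were also opposite-strand rows, 5335 against 2182 own-strand rows. Among the 25, 22 were lower and 3 higher in Ad-MAFG, with a median log2 ratio of -0.30. Other protein-coding genes on opposite-strand rows had a median of -0.013 and 51.6% of those measured were lower. These others were not matched for level. Their median in Ad-CMV was 2.63 FPKM, against 15.3 FPKM for the 27 measured histone genes. Own-strand rows reached 1 FPKM in 4 members. Besides Hist1h2bc and Hist1h2bh these were Hist1h1e, with 2.02 FPKM in Ad-CMV and 1.32 FPKM in Ad-MAFG on its own strand, and Hist1h2bn, with 3.27 and 2.84 FPKM. In Hist1h1e, Hist1h2bn and Hist1h2bc both strands were lower in Ad-MAFG, the opposite-strand row of Hist1h2bc going from 10.2 to 9.97 FPKM. The kit was strand-specific, but the setting under which strand was assigned to the reads was not given in the sources used here. Whether the opposite-strand rows hold the histone mRNAs or antisense RNA was not tested and cannot be told apart from these values.

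**Figure D3:**
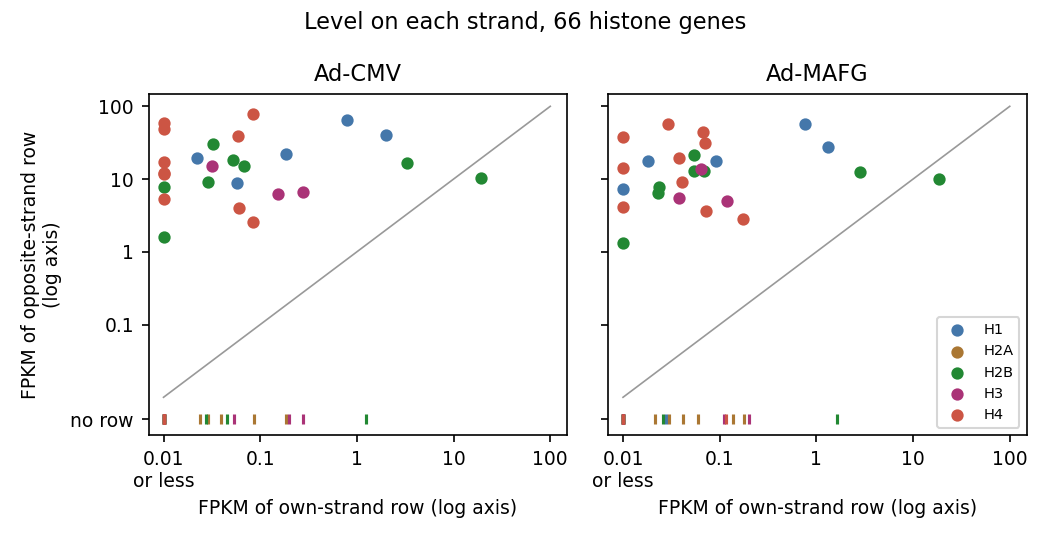
FPKM of the row on the gene's own strand (x, log axis, values of 0.01 or less drawn at 0.01) and on the opposite strand (y, log axis) for the 66 histone genes, by type, in each group; ticks at the bottom are genes with no opposite-strand row, and the grey line marks equality. Of the 26 genes with an opposite-strand row all but Hist1h2bc lie above the line, and the 19 H2A genes lie among the ticks.

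H2A stood apart, since no row named for an H2A gene lay on the opposite strand and none reached 1 FPKM. The highest was Hist1h2ae, with 0.184 FPKM in Ad-CMV and 0.179 FPKM in Ad-MAFG, and 11 of the 19 were listed at 0 in both groups. Opposite-strand rows were named for 5 of 6 H1, 8 of 17 H2B, 3 of 11 H3 and 10 of 13 H4 genes. For 6 of the 19 H2A genes, however, a row of at least 1 FPKM under another name shared the assembled coordinates. At Hist1h2ab (chromosome 13, 23751101 to 23751598) this row carried the name of a predicted miRNA, Gm44484, and had 22.4 FPKM in Ad-CMV and 15.1 FPKM in Ad-MAFG (log2 ratio -0.56). Gm44297 at Hist1h2af had 8.72 and 6.56 FPKM, and Gm44346 at Hist1h2an 3.54 and 2.95 FPKM. Each of these 3 rows lay opposite to the H2A gene and spanned 430 to 498 bases, about the length of the histone gene and not of a miRNA. Gm44313 at Hist3h2a had 16.3 and 14.6 FPKM, and Bola1, a neighbour of Hist2h2ab and Hist2h2ac, 7.14 and 4.97 FPKM, over loci of 23366 and 24504 bases. All 5 rows were lower in Ad-MAFG. The same held for 1 of 8 H3 genes and 1 of 3 H4 genes below 1 FPKM, namely Hist2h3b under Gm20628 (8.69 and 7.27 FPKM) and Hist1h4b under 4930558J22Rik (3.61 and 3.16 FPKM). A value below 1 FPKM for one of these 6 H2A genes thus covers the row of its own name alone. For the other 13 H2A genes no such row was found. These rows were picked after their values were seen.

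Near-identical copies limit what a read can say of any single member. For each GENCODE transcript, within the start and end of the gene in the deposited table, all windows of 76 bases, the read length by the labels, were compared with the transcripts of every gene that did not overlap it, in both orientations, and a window without an exact match was counted as unique. The median member had 48.3% unique windows. Measured members had a median of 75.6% (25 genes, lowest 28.4%) and members below 1 FPKM 36.1% (39 genes, lowest 0%). Over whole GENCODE transcripts these medians were 78.1% and 37.5%. The measured genes thus had more sequence of their own at the median, although 3 genes below 1 FPKM had 100% unique windows. By type, measured H1 genes had a median of 93.4%, H2B 55.8%, H3 51.9% and H4 76.9%, and the H2A genes 29.9%. Hist1h4d had 88.4%, Hist1h1c 93.4% and Hist1h1e 84.7% unique windows. In Hist1h2bn it was 28.4% and in Hist1h4k 32.1%, and the split of reads between these genes and their copies is uncertain.

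**Figure D4:**
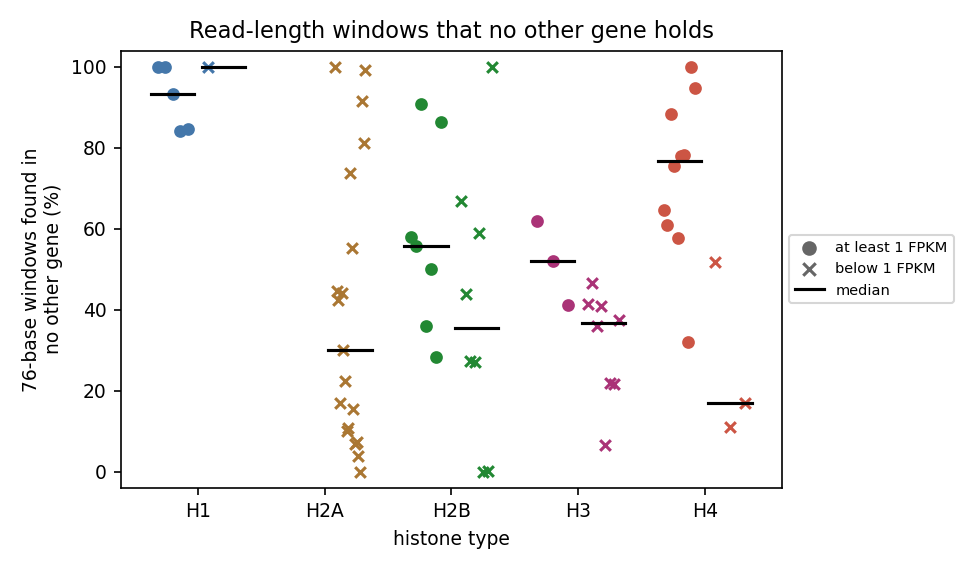
Share of 76-base windows of each member's transcript, within the deposited start and end of the gene, with no exact match in a gene that does not overlap it, by histone type, for members of at least 1 FPKM (circles) and below 1 FPKM (crosses), with medians as bars. The bar of the members below 1 FPKM lies under that of the measured ones for H2B, H3 and H4, H2A has crosses alone, and the 1 cross of H1 is at 100%.

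Genes that make, process and use these mRNAs were higher in some cases and lower in others. Of 17 genes for histone mRNA processing and turnover, 11 were measured, 1 was 1.5-fold higher and 0 were lower by that much, with a median log2 ratio of -0.11. Slbp, which binds the stem-loop, had 4.35 FPKM in Ad-CMV and 5.81 FPKM in Ad-MAFG (log2 ratio 0.41). Npat, the activator of histone gene transcription, had 1.40 and 1.28 FPKM. The gene past 1.5-fold was Upf1, a helicase of mRNA decay that acts on histone mRNAs when DNA synthesis stops, with 0.622 and 1.18 FPKM. Upf1 reached 1 FPKM only in Ad-MAFG, so it could be counted only as higher. Of 11 replication-independent histone variants, whose mRNAs are mostly polyadenylated, 5 were measured, 3 lower and 2 higher, with a median of -0.40 and none past 1.5-fold. H2afv, encoding an H2A.Z form, had 5.77 FPKM in Ad-CMV and 4.10 FPKM in Ad-MAFG, and H2afz was at about 0 in both groups. The value of H2afz covers the 1 transcript listed for its locus and need not hold all RNA of the gene. Of 8 histone chaperones 6 were measured, none past 1.5-fold, with a median of 0.016. Asf1a had 1.66 and 1.64 FPKM and Asf1b, which is expressed in dividing cells, 1.32 and 1.89 FPKM.

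Genes of S phase and replication were mostly higher in Ad-MAFG: 3 of 11 measured ones were lower, against 55.3% of protein-coding genes. Of 17 analysed, 11 were measured, 4 were 1.5-fold higher and 1 was 1.5-fold lower in Ad-MAFG, where 10.2% and 10.9% of protein-coding genes were, and the median log2 ratio was 0.35. Ccne1, the cyclin that opens S phase, had 0.399 FPKM in Ad-CMV and 1.68 FPKM in Ad-MAFG (log2 ratio 1.83). Ccne1 reached 1 FPKM only in Ad-MAFG, as did Tyms (0.742 and 1.11 FPKM), so these genes could be counted only as higher. Rrm2, a subunit of ribonucleotide reductase, had 2.21 and 4.30 FPKM, Mcm2 of the replicative helicase 1.17 and 2.06 FPKM, and the proliferation marker Mki67 7.53 and 11.8 FPKM. Tk1, the thymidine kinase, was the gene that was lower, with 2.76 and 1.78 FPKM. The DNA clamp Pcna was level between the groups, at 2.72 FPKM in Ad-CMV and 2.66 FPKM in Ad-MAFG. Tk1 and Mcm7 (4.69 and 4.50 FPKM), both lower, were own-strand rows. The other measured genes of this list were opposite-strand rows, and all of these but Pcna were higher. Which RNA the opposite-strand rows hold was not tested. Cdt1 of this list was not analysed here. Without values per mouse, neither the difference of these lists nor that of any gene in them could be tested against the spread between mice.

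**Figure D5:**
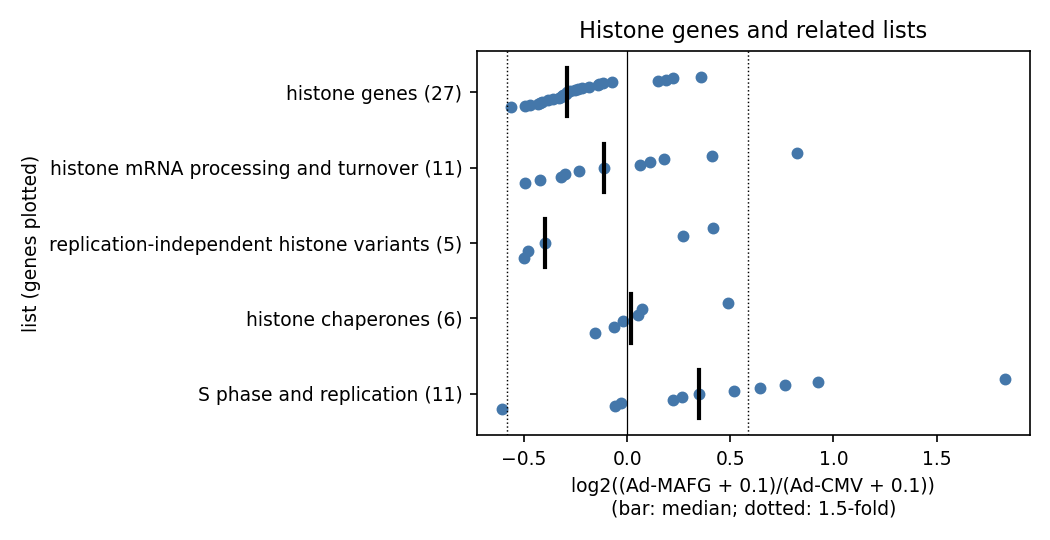
Log2 ratio of Ad-MAFG to Ad-CMV of measured genes (points; 1 gene each) in 5 lists with the median as a bar; dotted lines mark 1.5-fold. The medians are -0.29 for histone genes, -0.11 for processing, -0.40 for variants, 0.016 for chaperones and 0.35 for S phase.

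Markers of other liver cells also differed between the pooled groups, and in bulk tissue fewer cells of a type cannot be told apart from less RNA per cell. The summed FPKM of the 6 hepatocyte markers was 6085 in Ad-CMV and 6533 in Ad-MAFG, most of it Alb (4310 and 5603 FPKM), while Apoa1, Tat and Cps1 were 1.5-fold lower and Ttr had at most 0.230 FPKM. The value of Ttr covers the 1 transcript listed for its locus and need not hold all RNA of the gene. Macrophage markers (6) summed to 56.1 and 72.4 FPKM and went both ways, with Lyz2 at 26.1 and 49.9 FPKM but Marco at 13.6 and 2.10 FPKM. The sum of 5 stellate cell markers was 81.2 in Ad-CMV and 149.8 in Ad-MAFG, mostly by Col1a1 and Col3a1, while Dcn and Des were close to level. For 5 cholangiocyte markers, of which Krt7 was listed at 0, the sums were 16.2 and 48.4, mostly by Spp1 (11.5 and 40.9 FPKM). Krt19, Epcam and Sox9 were also higher, at lower levels. Sums were 9.99 and 6.74 for 6 T and NK cell markers, 5.57 and 7.67 for 3 neutrophil markers, 32.8 and 28.6 for 4 endothelial markers and 930 and 1188 for 6 erythroid markers. The neutrophil marker Ly6g was below 1 FPKM in both groups. Cd3e was higher in Ad-MAFG while the other T and NK cell markers were lower. Of the endothelial markers, Stab2 and Lyve1 were higher and Pecam1 and Kdr lower. The part of cell makeup in the histone values was not tested.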

How the data were processed

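Total RNA of mouse livers (3 mice per group by the labels) was depleted of ribosomal RNA, made into strand-specific libraries and read as pairs of 76 bases, per the labels (the study's methods give a slightly different length). As the study's methods and the submitters' processing notes state, the authors removed ribosomal reads with Bowtie2 2.2.9, aligned with STAR 2.6.0c to GRCm38 (mm10) and assembled and tested with Cufflinks 2.2.1 and Cuffdiff. The authors deposited 1 table of 68997 rows with 1 pooled FPKM value per group and 0 per-sample columns. Its fold change, test statistic, p-value and q-value columns are the authors' comparison and were not used. A legend of the study gives another number of mice for this experiment.

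Here each Ensembl gene was represented by its row of highest mean FPKM (Python 3.11.15, pandas 2.3.3, numpy 2.4.6), log2 ratios used a pseudocount of 0.1, and genes needed 1 FPKM in the higher group. The table lists 1 transcript for each locus. Of 94 member rows, 81 (86.2%) come from loci with room for 1 transcript in the numbering, as do all 27 opposite-strand member rows, against 52.5% of protein-coding rows. The ratio and call step was tested on simulated data. Every measured member is named, up to 8 per type by level plus the extremes of ratio; Hist1h4i, Hist1h4k and Tk1 were added after their values were seen. Members, lists, motifs and tests were chosen with earlier results of these data known. One marker list is not reported here. Alternatives were other pseudocounts, filters, folds, rows and centring.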

Additional observations from a re-analysis of the deposited data

How the results depend on the processing

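No paired analysis was possible because the table holds 1 pooled value per group, and for the same reason no mouse could be left out. No alternative turned the direction of a median. Medians were compared with a tolerance of 0.1 on the log2 scale. With no filter on low values, 2 histone genes were 1.5-fold higher and 2 lower, all below 1 FPKM, the median log2 ratio was 0 over all members and over H3 and -0.14 over H4, and 6.76% of protein-coding genes were 1.5-fold lower. With own-strand rows alone, 4 genes were left, the median was -0.14, that of H1 -0.58 and that of H2B -0.075, and H3 and H4 gave no value. A 2-fold limit left 0 histone genes in either direction beside 4.79% of protein-coding genes higher and 4.41% lower, and a lower limit of 0.32 on the log2 scale gave 1 and 10 beside 19.3% and 22.6%. With a pseudocount of 1, 6.34% of protein-coding genes were higher, and with a minimum of 5 FPKM, 17.7% were lower. Centring on genes of like level, chosen after seeing the data, gave medians of -0.16 over all members, -0.18 for H1, -0.16 for H3 and -0.13 for H4. Summed rows, opposite-strand rows alone, rows of status OK and centring on all protein-coding genes moved no median beyond the tolerance. All 27 measured histone genes already had status OK and 25 were already opposite-strand rows. The settings on status and on opposite-strand rows could therefore hardly move a median.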

Other observations

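Between the histone genes of the Hist1 region (chromosome 13, 21715763 to 23934851), 20 rows of 119 to 4621 bases had no Ensembl gene and at least 1 FPKM in the higher group. Of these, 10 were 1.5-fold higher and 5 were 1.5-fold lower in Ad-MAFG, with a median log2 ratio of 0.61, and the other 5 lay within 1.5-fold. Among protein-coding genes 10.2% were higher and 10.9% lower, and the share over all rows without an Ensembl gene was not counted. Rows that reached 1 FPKM only in Ad-MAFG, such as 21916999 to 21917230 (0.395 and 3.78 FPKM), could be counted only as higher. Those that reached it only in Ad-CMV, such as 23441825 to 23442412 (1.42 and 0.462 FPKM), could be counted only as lower. The rows of highest level were lower in Ad-MAFG. That at 22022340 to 22022496 had 167 FPKM in Ad-CMV and 109.5 FPKM in Ad-MAFG, and that at 23453388 to 23453506 had 62.1 and 31.6 FPKM. The row at 21847965 to 21848111 had 5.18 FPKM in Ad-CMV and 25.8 FPKM in Ad-MAFG. Such short rows have few positions for a fragment, so their FPKM is less certain than that of a histone gene. No annotation was given to them, and the rows described were chosen after their values were seen.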
